A study of Mus musculus with 12 samples.

Results

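The antigen presentation and proteasome genes of mouse blood were examined in 6 RNA sequencing libraries. They were taken from the deposited blood table by gene symbol alone: the H2 genes of the mouse major histocompatibility complex, B2m, the peptide transporter and loading genes, the regulators Nlrc5 and Ciita, the protein disulfide isomerases named Pdia and the proteasome genes named Psm. Of the 8003 genes in that table, 62 matched. The proteasome contributed 35 of them and the antigen presentation machinery 27.

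Nucleated cells display samples of their own proteins on class I molecules. The proteasome cuts proteins into peptides, the Tap transporter carries the peptides into the endoplasmic reticulum, and chaperones load them onto a class I heavy chain paired with the light chain beta-2 microglobulin. In immune cells and under interferon, the catalytic subunits of the proteasome are replaced by immunoproteasome subunits, and Psme1 and Psme2 form an activator cap on the core particle.

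All mice were C57BL/6 and 15 months old by their labels, with 3 control mice (Ctrl) labelled normal and 3 treated mice (Akk). The treatment label of the Akk mice names a membrane protein of the gut bacterium Akkermansia muciniphila given for 8 weeks, and the protocol label gives 6 weeks. The methods of the study describe instead gavage of the bacterium, or of a vehicle, to mice pretreated with antibiotics, and RNA drawn from animals whose gut the bacterium had failed to colonise. Which of these each group received could not be settled here, and the sex of each mouse was not given in the sources used here. Each library came from a different mouse, and the numbers in the titles are shared with 6 hippocampal libraries.

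Expression was given as FPKM, fragment counts scaled by transcript length and by the mapped fragments of the library, so levels can be compared between genes. The read depth behind the values was unknown. The table lists the genes that the authors selected as different between the groups, so the gene list itself was chosen on these libraries, and 7966 of its 8003 genes had a lower mean in Akk.

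Ctrl 1 stood apart from the other libraries. Its FPKM values added up to 70846, whereas the remaining controls reached 19551 (Ctrl 2) and 10806 (Ctrl 3) and Akk 1 to 3 reached 11427, 10311 and 10731. Ctrl 1 held the highest value of 7862 genes and of all 62 antigen presentation and proteasome genes. Levels are therefore given both as deposited and relative to the library median (centred), meaning log2(FPKM + 0.1) minus the median of that quantity over the 8003 genes of the same library. Of the cell type marker lists, 6 of 6 NK cell, 8 of 8 neutrophil, 7 of 8 monocyte, 6 of 6 platelet, 6 of 8 dendritic cell, 4 of 8 T cell and 2 of 9 B cell genes were in the table, and Cd209a of the dendritic cell list was the only marker at 0 in any library. None of 9 red cell lineage genes and none of 12 class II chain genes, Cd74 included, was in the table, so they were not analysed here.

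The promoters of the class I genes are shown first because they share a sequence block that the selection by symbol did not use. RefSeq promoter records of GRCm38.p6, running from 250 bases before to 50 bases after each gene's start, were found for 49 of the 62 genes. The block joins the NF-kappaB core letters GGGATTCCC to the interferon regulatory factor (IRF) core letters AANNGAAA, read here on the opposite strand. The lines below give it for the 4 genes that held the first motif, 5′ to 3′ on the gene's strand, with both motifs in capitals.
H2-K1, chr17:34000430-34000457, minus strand: GGGATTCCCcatctccacagTTTCACTT
H2-D1, chr17:35262924-35262951, plus strand: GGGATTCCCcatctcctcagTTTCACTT
H2-Q6, chr17:35424678-35424705, plus strand: GGGATTCCCcatctccccagTTTCACTT
H2-Q7, chr17:35439023-35439049, plus strand: GGGATTCCCatctccccagTTTCACTT

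In H2-Q7 the block was 27 bases long and in the others 28, and that of H2-D1 lies within an exon of a longer GENCODE transcript. Searched on both strands, the letters GGGATTCCC occurred in 4 of 10 class I heavy chain promoters, in 0 of 30 proteasome promoters and in 0.37% of all 27025 promoters of the same length. The IRF core letters occurred in 10 of 10 class I heavy chain promoters and in 5 of 30 proteasome promoters, against 24.2% of all promoters. The letters CCAAT were found in 9 of 10 class I heavy chain promoters and 10 of 30 proteasome promoters, against 37.9% of all. The letters TGACG were found in 6 of 10 and 12 of 30, against 21% of all. The motifs were chosen with the sequences in view, and a match describes letters and not a bound site.

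H2-K1 and H2-Q7 also share runs of letters on both sides of the block, with differences between them, and this likeness was not measured. The light chain gene carries the IRF core letters without the exact letters GGGATTCCC. Other forms of the NF-kappaB site were not searched, so their absence from B2m is not shown. The stretches below end at the RefSeq start of H2-K1 and H2-Q7 and just short of the first exon of B2m, and none overlaps an exon of the GENCODE annotation. Capitals again mark the same motifs.
H2-K1, chr17:34000348-34000547, minus strand: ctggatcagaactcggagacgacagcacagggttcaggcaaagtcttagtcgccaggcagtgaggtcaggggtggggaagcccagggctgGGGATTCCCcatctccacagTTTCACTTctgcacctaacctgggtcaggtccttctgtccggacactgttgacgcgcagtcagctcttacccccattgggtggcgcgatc
H2-Q7, chr17:35438955-35439154, plus strand: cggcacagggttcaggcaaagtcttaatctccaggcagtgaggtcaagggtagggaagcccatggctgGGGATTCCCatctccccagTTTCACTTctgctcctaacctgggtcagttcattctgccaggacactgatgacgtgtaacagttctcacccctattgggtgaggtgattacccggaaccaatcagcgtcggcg
B2m, chr2:122147487-122147685, plus strand: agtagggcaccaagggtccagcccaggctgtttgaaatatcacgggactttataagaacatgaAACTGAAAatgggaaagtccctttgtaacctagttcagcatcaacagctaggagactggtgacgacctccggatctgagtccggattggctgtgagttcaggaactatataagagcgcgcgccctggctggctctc

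Over the whole set, the mean FPKM was lower in Akk for each of the 62 genes, as for 7966 of all 8003. None of the 62 passed the test. With Benjamini-Hochberg adjustment over all 8003 genes and thresholds of 1.5-fold and an adjusted p of 0.05, limma called 0 of 62 genes lower in Akk, against 0% of the table. The smallest adjusted p among them was 0.487. At an unadjusted p under 0.05, 3 of 62 (H2-Q9, H2-T22 and H2-Q6) were lower, against 3.4% of the table, which is close to the members' 4.84%. The groups did not overlap, with all Akk libraries lower, for 8 of 62 genes (12.9%), against 15.4% of the table.

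Their log2 fold changes, Akk against Ctrl, had a median of -1.06, beside -0.87 for all 8003 genes. Values ran from -2.06 for B2m to -0.23 for Psme2b, a near copy of the activator gene Psme2. Without Ctrl 1 the median was -0.41 beside -0.24 for the table, and 59 of 62 genes lay below 0. The exceptions, chosen after their values were seen, were Psme2b at 1.02, H2-Q10 at 0.61 and Psmc4 at 0.17.

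**Figure D1:**
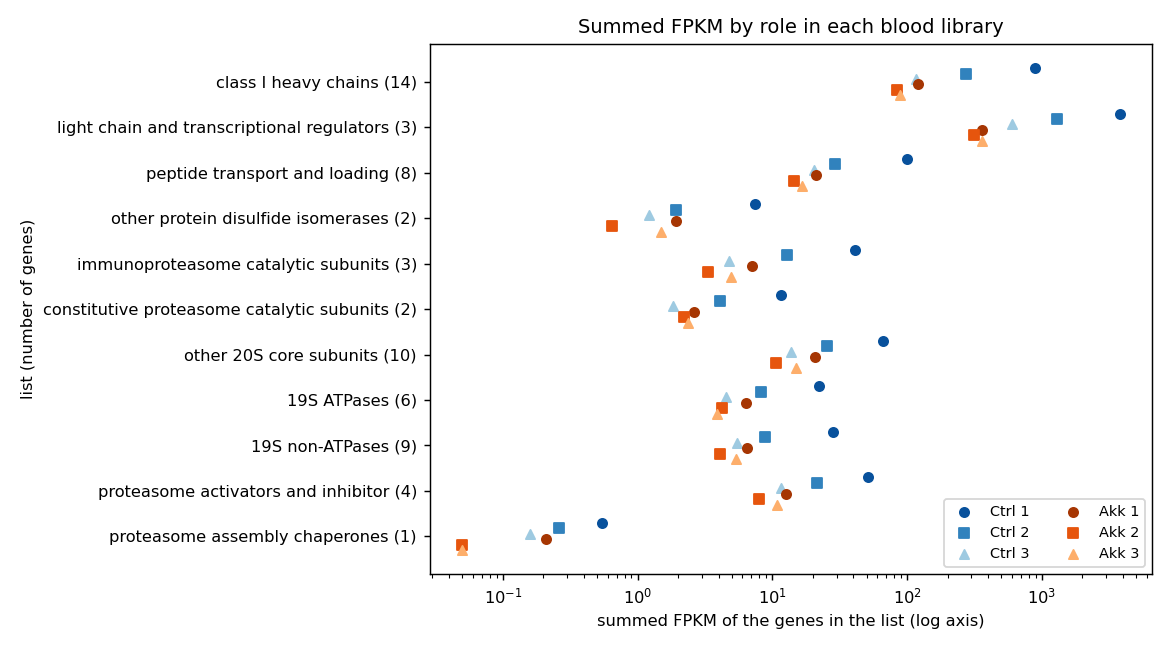
Summed FPKM (log axis) of the genes of each role in each of the 6 blood libraries. Ctrl 1 is the highest point in every row, and only in the row of the light chain and its regulators, which B2m dominates, do the groups separate, at 602 or more in Ctrl and 359 or less in Akk.

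Centring adds the same 0.91 on the log2 scale to the fold change of every gene, so differences between roles are the same on both scales. The centred median log2 fold change was -0.54 for the 14 class I heavy chains, -0.57 for the 3 immunoproteasome subunits and -0.28 for the 8 transport and loading genes, while it was 0.021 for the 2 constitutive catalytic subunits, -0.0047 for the 10 other core subunits and -0.063 for the 9 genes of the 19S non-ATPase list. The other lists lay between these. The light chain and regulators stood at -0.18, the activators at -0.16 and the assembly chaperone at -0.12. The 19S ATPases stood at -0.10 and the other disulfide isomerases at -0.040. All 62 together stood at -0.15 and the table at 0.045. These medians are a description, and no difference between roles was tested. The groups did not overlap, lower in Akk, for 7 of 62 genes (11.3%), against 4.44% of the table, and for none in the other direction, against 4.01%. The 7 were H2-D1, H2-K1, H2-T22, B2m, Erap1, Psmb9 and Psme1. With Ctrl 1 left out the count was 12 of 62, against 9.1% of the table. None of the 7 passed the adjusted test, the smallest adjusted p of limma with Benjamini-Hochberg adjustment being 0.626.

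**Figure D2:**
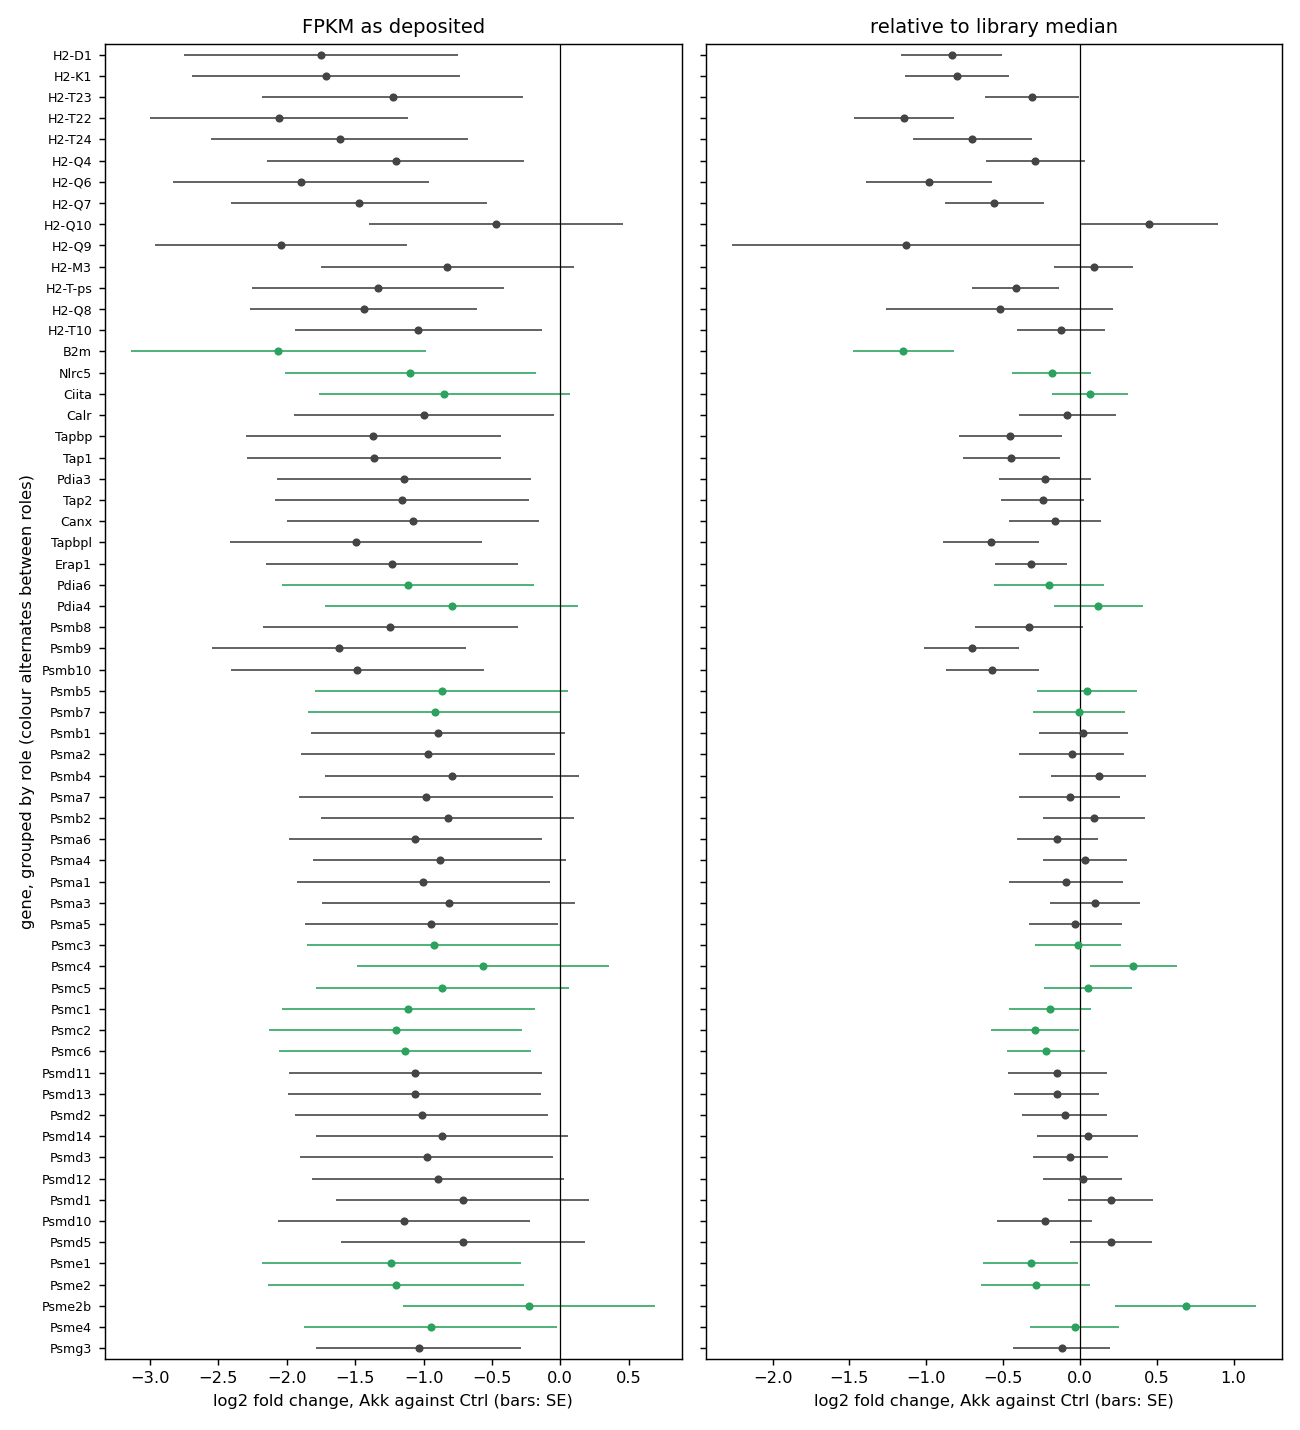
Log2 fold change of Akk against Ctrl for each of the 62 genes with its standard error, from FPKM as deposited (left) and relative to the library median (right), with colour alternating between roles. All points lie below 0 on the left, from -2.06 to -0.23, while on the right 45 lie below and 17 above 0, with B2m and H2-T22 the lowest and H2-Q10 and Psme2b the highest. The same 0.91 separates the panels for every gene.

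The class I heavy chains are the peptide-holding chains. H2-D1 (chr17:35262730-35267499, GENCODE annotation of GRCm38) and H2-K1 are the classical chains, which present peptides to CD8 T cells. H2-D1 stood at 436, 137 and 59.7 FPKM in Ctrl 1 to 3 and at 52.9, 40.6 and 43.5 in Akk 1 to 3. All Akk libraries were below all Ctrl libraries, with means of 211 ± 199 and 45.7 ± 6.46 (SD, n = 3). The spread of the Ctrl group was nearly as large as its mean, and the log2 fold change was -1.75 ± 1.00 (SE) at an adjusted p of 0.487 from limma with Benjamini-Hochberg adjustment. H2-K1 stood at 184, 63.8 and 23.9 FPKM in Ctrl and at 29.1, 15.9 and 17.01 in Akk, so Akk 1 lay above Ctrl 3 as deposited. Relative to the median it lay just below, at 6.19 against 6.23.

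H2-T22 (chr17:36037128-36042747) encodes a nonclassical chain that is recognised by some gamma-delta T cells. Its level was 45.0, 14.8 and 5.45 FPKM in Ctrl and 4.62, 3.04 and 3.40 in Akk. The groups did not overlap, and the mean was 5.90 times higher in Ctrl, or 2.75 times with Ctrl 1 left out. On the centred scale it was 4.90, 5.05 and 4.12 in Ctrl and 3.56, 3.49 and 3.59 in Akk (log2). This was a difference of -1.14 ± 0.32 (SE), with an unadjusted p of 0.0032 and an adjusted p of 0.626 in limma. Its transcript matches that of H2-T10 at 96.6% of bases, and how the authors divided shared reads is not given in the sources used here, so its level is uncertain.

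NK cell markers were lower in mean in Akk, as was nearly the whole table, and 0 of 6 passed the test. The summed FPKM of the 6 NK cell markers was 14.0 to 62.3 in Ctrl and 6.50 to 11.1 in Akk, and 5 of the 6 genes had groups without overlap as deposited, against 15.4% of the table, and 3 of 6 after centring, against 4.44%. The median of that list relative to the library median was 1.21 to 1.59 in Ctrl and 0.30 to 0.51 in Akk. The monocyte list summed to 70.5 to 943 FPKM in Ctrl and 74.7 to 122 in Akk, and the neutrophil list to 251 to 1394 and 143 to 366. The centred median log2 fold change was -0.90 for the NK cell, -0.77 for the monocyte and -0.56 for the neutrophil list. It was -0.32 for the T cell, -0.31 for the platelet, 0.11 for the dendritic cell and 0.25 for the B cell list. After centring, 2 of 7 monocyte, 1 of 8 neutrophil and 2 of 6 platelet genes had groups without overlap, against 4.44% of the table. No T cell, dendritic cell or B cell gene did. Fewer cells of a type and less RNA per cell cannot be told apart in bulk blood, and the part of these cells in the class I values was not tested.

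H2-Q9 belongs to the Q family of nonclassical chains, together with H2-Q6, H2-Q7 and H2-Q8, which are close copies of each other. H2-Q9 stood at 15.0 and 5.38 FPKM in Ctrl 1 and Ctrl 2 and was listed at 0 in Ctrl 3. In Akk it stood at 0.55 and 1.72 and was listed at 0 in Akk 3. The groups overlapped, and the log2 fold change on the log2(FPKM + 0.1) scale was -2.04 ± 0.92 (SE), with an unadjusted p of 0.027 and an adjusted p of 0.487 in limma. Without Ctrl 3 it was -4.21 at an adjusted p of 0.0087, past both thresholds, and without Ctrl 1 it was -0.59 at an adjusted p of 0.972. The call therefore rests on which control is kept.

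H2-Q9 was also the only gene of the set in the hippocampus table of 284 genes. There it stood at 0.8 and 0.62 FPKM in Ctrl 1 and Ctrl 2, was listed at 0 in Ctrl 3, and stood at 0.08, 0.63 and 0.1 in Akk 1 to 3. The libraries with the higher levels thus carried the same title numbers in both tissues, namely Ctrl 1, Ctrl 2 and Akk 2. The limma test in the hippocampus gave a log2 fold change of -0.43 ± 1.04 (SE) at an adjusted p of 0.995 with Benjamini-Hochberg adjustment. The other 2 genes that match by symbol in the hippocampus, H2-Q1 and the class II chain gene H2-Ab1, were not in the blood table, and their adjusted p was 0.995 and 0.755.

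The close copies of H2-Q9 did not follow it library by library. H2-Q6 stood at 21.6, 6.43 and 3.36 FPKM in Ctrl and at 4.44, 2.2 and 0.81 in Akk. H2-Q7 stood at 19.1, 5.03 and 4.82 in Ctrl and at 4.64, 1.63 and 2.68 in Akk, without overlap. H2-Q8 was listed at 0 in 3 libraries and reached 2.58 in Ctrl 1. H2-Q9 made up 25.8%, 31.0% and 0% of the summed FPKM of the 4 genes in Ctrl and 5.71%, 31.0% and 0% in Akk, while H2-Q6 made up 19.3% to 46.1% in the 6 libraries. The sum itself was 58.4, 17.3 and 8.18 FPKM in Ctrl and 9.63, 5.55 and 4.2 in Akk. In Akk 1 it was above Ctrl 3, and the difference on the log2 scale was -1.72, with an exact permutation p of 0.2 (two-sided), where the smallest p that 3 against 3 allows is 0.1. The transcripts of H2-Q6 and H2-Q7 match at 95.1% of bases over 64.2% of the length of H2-Q7. H2-Q8 and H2-Q9 had no transcript in the GENCODE annotation used, so their likeness to the others was not measured here. The division of reads among the 4 genes is uncertain, and the sum was taken as the firmer value.

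**Figure D3:**
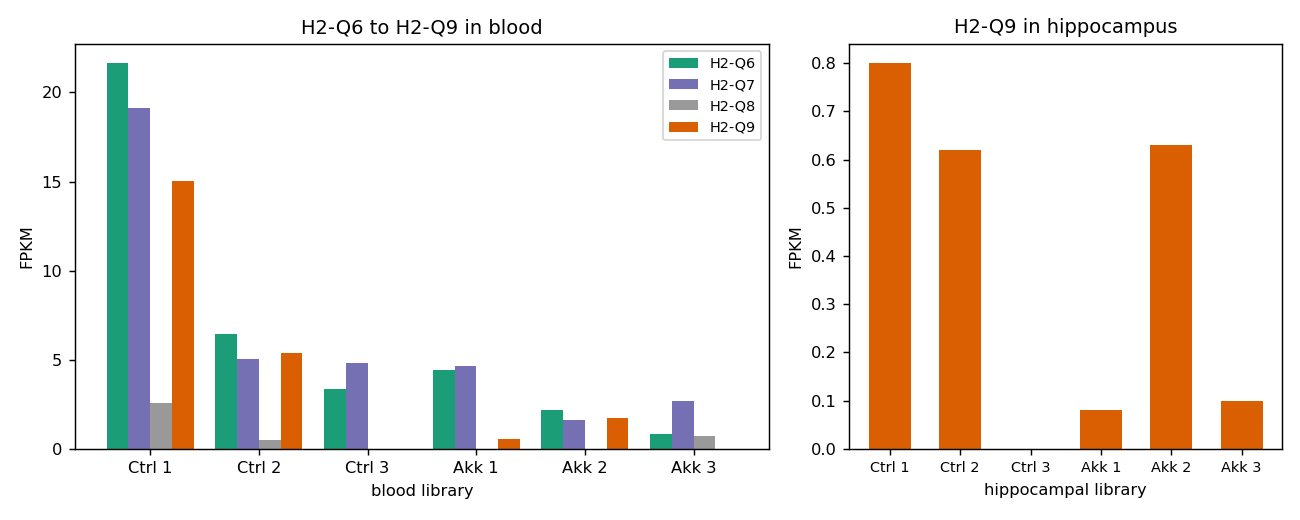
FPKM of H2-Q6, H2-Q7, H2-Q8 and H2-Q9 in each blood library (left) and of H2-Q9 in each hippocampal library (right). H2-Q9 is at or above 1.72 in blood and at or above 0.62 in hippocampus in Ctrl 1, Ctrl 2 and Akk 2, and at or below 0.55 and 0.1 in the other libraries.

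The genes whose pattern over the 6 blood libraries was most like that of H2-Q9 were, within the set, Psmd5 (Pearson r = 0.90), Psma3 (0.88), Psmc4, Psmd2 and H2-T-ps (0.87 each), on log2(FPKM + 0.1). Outside it they were Timm17a, Rpp25l, BC100530 and Tmem202 (0.99 each) and Mrto4 (0.96). All points share the library totals, of which Ctrl 1 is the largest. Relative to the library median BC100530 kept r = 0.98 and H2-T-ps 0.93, and the value for Psmd5 was 0.39. It was 0.82 for Timm17a, 0.74 for Rpp25l, 0.65 for Tmem202 and 0.47 for Mrto4. Within the set it was 0.71 for Psma3, 0.68 for Psmd2 and 0.60 for Psmc4. The genes were picked for the highest r over only 6 libraries, so high values come in part from that choice. BC100530 was listed at 0 in Ctrl 3 and Akk 3, as was H2-Q9.

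B2m, which encodes the light chain that every class I molecule needs, had the second highest FPKM of the table in each library. Its level was 3776, 1293 and 602 FPKM in Ctrl and 358, 315 and 357 in Akk. The Akk libraries lay close together and below every Ctrl library, and the means were 1890.3 ± 1669.5 and 343 ± 24.3 (SD, n = 3). The log2 fold change was -2.06 ± 1.08 (SE) at an adjusted p of 0.487 from limma with Benjamini-Hochberg adjustment. As a share of the summed FPKM of the table, B2m (chr2:122147686-122153083) made up 5.33%, 6.61% and 5.57% in Ctrl and 3.13%, 3.06% and 3.32% in Akk. These shares do not put Ctrl 1 apart from the other controls, and the groups did not overlap. The centred difference was -1.15 ± 0.33 (SE), with an unadjusted p of 0.0036 and an adjusted p of 0.626.

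The transcriptional regulators of the pathway were expressed far lower. Nlrc5, the activator of class I genes, stood at 2.3, 0.52 and 0.22 FPKM in Ctrl and 0.35, 0.2 and 0.26 in Akk. Ciita, the activator of class II genes, stood at 1.47, 0.44 and 0.28 in Ctrl and 0.35, 0.31 and 0.2 in Akk. Both overlapped between the groups, and relative to the library median the log2 fold change was -0.18 for Nlrc5 and 0.067 for Ciita.

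The transport and loading genes were all lower in mean, at log2 fold changes of -1.49 to -0.997 as deposited, and 2 of the 8 had groups without overlap, where 15.4% of the table did. Calr encodes calreticulin, an endoplasmic reticulum chaperone that helps load class I molecules, and had the highest level of them. It stood at 35.7, 13.9 and 11.9 FPKM in Ctrl and at 9.98, 9.08 and 8.1 in Akk, without overlap. Tapbpl, which encodes the peptide editor TAPBPR, stood at 2.1, 0.72 and 0.7 in Ctrl and at 0.51, 0.13 and 0.36 in Akk. The centred difference of Calr was -0.082 and that of Tapbpl was -0.58, and in both the groups then overlapped.

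Tap1 and Tap2 encode the subunits of the peptide transporter and lie on chromosome 17 beside the immunoproteasome genes Psmb8 and Psmb9. Tap1 stood at 14.6, 3.88 and 1.73 FPKM in Ctrl and 2.44, 1.15 and 1.89 in Akk. Tap2 stood at 6.69, 1.95 and 1.11 in Ctrl and 1.32, 0.79 and 1.1 in Akk. In both genes Akk 1 lay above Ctrl 3. Psmb9 and Tap1 are read in opposite directions from RefSeq starts 225 bases apart. The ratio of Psmb9 to Tap1 was 1.10, 1.09 and 1.03 in Ctrl and 0.83, 1.04 and 0.83 in Akk. Since Ctrl 1 was highest for 7862 of the 8003 genes, most pairs rise together in it. A link between the ratio and the shared start region was not tested. The difference in that ratio was -0.26 on the log2 scale, with an exact permutation p of 0.2 (two-sided).

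Erap1, the aminopeptidase that trims peptides in the endoplasmic reticulum, was named after its values were seen. It stood at 2.02, 0.57 and 0.37 FPKM in Ctrl and 0.39, 0.21 and 0.24 in Akk. Of the remaining disulfide isomerases, Pdia6 stood at 4.43, 1.02 and 0.38 in Ctrl and 0.86, 0.22 and 0.68 in Akk, with overlapping groups and a difference of -0.20 relative to the library median.

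The 3 immunoproteasome subunits were lower in mean by -1.62 to -1.24 on the log2 scale, and the 2 constitutive catalytic subunits in the table by -0.92 and -0.87. Psmb8 stood at 16.9, 5.46 and 1.76 FPKM in Ctrl and 3.67, 1.44 and 2.18 in Akk. Psmb9 stood at 16.1, 4.25 and 1.78 in Ctrl and 2.02, 1.2 and 1.56 in Akk. Psmb10 stood at 7.98, 3.12 and 1.22 in Ctrl and 1.41, 0.71 and 1.18 in Akk. In each of the 3, Akk 1 lay above Ctrl 3, so the groups overlapped as deposited. Relative to the median those of Psmb9 did not, by a narrow margin, with Ctrl 3 at 2.55 and Akk 3 at 2.52.

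Their constitutive counterparts were at lower levels in Ctrl 1. Psmb5, which Psmb8 replaces, stood at 6.91, 2.15 and 1.1 FPKM in Ctrl and 1.05, 1.45 and 1.65 in Akk. Psmb7, which Psmb10 replaces, stood at 4.74, 1.93 and 0.72 in Ctrl and 1.57, 0.76 and 0.73 in Akk. The constitutive partner of Psmb9 was not analysed here. The transcript of Psmb5 matches that of Gm3375 at 98.9% of bases, so its level is uncertain.

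A plain ratio within a library does not depend on the library total, but adding 0.1 pulls ratios of low values toward 1. The ratio of Psmb10 to Psmb7, of FPKM + 0.1, was 1.67, 1.59 and 1.61 in Ctrl and 0.90, 0.94 and 1.54 in Akk. The groups did not overlap, though Akk 3 lay close to the controls. As deposited, Psmb10 and Psmb7 stood at 3.12 and 1.93 FPKM in Ctrl 2 and at 1.18 and 0.73 in Akk 3. Without the added 0.1 these libraries have nearly the same ratio, so the gap depends on it. The difference was -0.57 on the log2 scale, with an exact permutation p of 0.1 (two-sided), the smallest that 3 against 3 allows. The ratio of Psmb8 to Psmb5 was 2.43, 2.47 and 1.55 in Ctrl and 3.28, 0.99 and 1.30 in Akk, so the highest and the lowest value both belonged to Akk, and the exact permutation p was 0.6. Of the class I pairs, the ratio of B2m to H2-D1 was 8.66, 9.43 and 10.07 in Ctrl and 6.75, 7.76 and 8.18 in Akk, without overlap, at a difference of -0.31 and an exact permutation p of 0.1. The ratio of H2-D1 to H2-K1 was 2.14 to 2.49 in Ctrl and 1.82 to 2.55 in Akk, with an exact permutation p of 1. Over the 8 exact tests of this kind, the smallest p after Benjamini-Hochberg adjustment was 0.4.

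**Figure D4:**
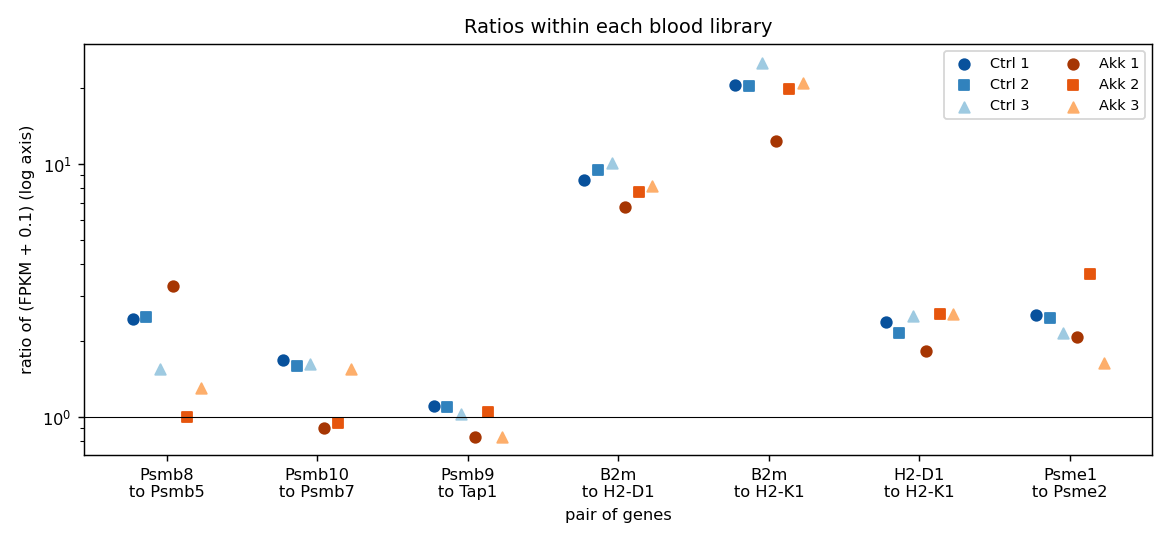
Ratio of FPKM + 0.1 between the genes of 7 pairs (log axis) in each of the 6 blood libraries. Ctrl and Akk do not overlap for Psmb10 to Psmb7 and for B2m to H2-D1, and they overlap for the other pairs. For Psmb10 to Psmb7 the gap is narrow and depends on the added 0.1.

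The remaining proteasome genes stayed near the table's median. The other 10 core subunits had log2 fold changes of -1.06 to -0.79, the 6 ATPases of the 19S cap -1.21 to -0.57 and the 9 non-ATPases -1.14 to -0.71. Psmb1, the highest of these core subunits, stood at 10.7, 3.97 and 2.13 FPKM in Ctrl and 3.65, 1.92 and 1.92 in Akk. Psmc3, an ATPase that helps unfold and feed in substrates, stood at 6.00, 2.59 and 1.46 in Ctrl and 1.94, 1.36 and 1.15 in Akk. Akk 1 lay above Ctrl 3 in both. Psmd11, a lid subunit, stood at 6.43, 1.12 and 1.61 in Ctrl and 1.3, 0.68 and 1.27 in Akk. Relative to the library median the differences of Psmb1, Psmc3 and Psmd11 were 0.021, -0.013 and -0.15.

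Psmd10 and Psme4 were the proteasome genes without overlap as deposited, 2 of 35, against 15.4% of the table, which is a smaller share than in the table. Psmd10, the assembly factor gankyrin, stood at 1.64, 0.68 and 0.56 FPKM in Ctrl and 0.27, 0.41 and 0.34 in Akk. Psme4, the activator PA200, stood at 2.11, 0.94 and 0.77 in Ctrl and 0.64, 0.56 and 0.47 in Akk. Both overlapped relative to the library median.

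Psme1, a subunit of the interferon-inducible activator PA28, had the highest level of all proteasome genes. It stood at 32.0, 14.6 and 7.18 FPKM in Ctrl and 7.67, 5.42 and 6.04 in Akk, so Akk 1 lay above Ctrl 3. On the centred scale it was 4.41, 5.03 and 4.51 in Ctrl and 4.28, 4.30 and 4.40 in Akk, where Akk 3 fell just short of Ctrl 1. Psme2b stood at 4.47, 0.14 and 0.38 in Ctrl and 0.59, 0.6 and 0.58 in Akk, and its transcript matches Psme2 at 99.4% of bases, so both levels are uncertain. The assembly chaperone gene Psmg3 stood at 0.54, 0.26 and 0.16 in Ctrl and 0.21, 0.05 and 0.05 in Akk.

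**Figure D5:**
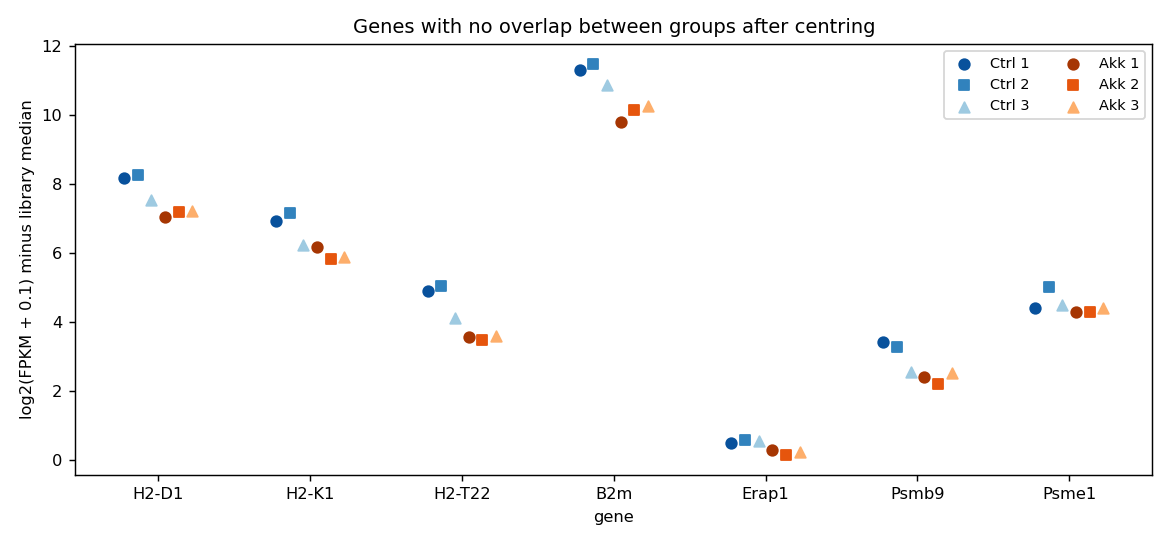
Level relative to the library median, log2(FPKM + 0.1) minus the median over 8003 genes, of the 7 genes whose groups did not overlap after centring, in each blood library. The gap between the groups is wide for B2m and H2-T22 and narrow for Psme1, where Ctrl 1 is at 4.41 and Akk 3 at 4.40. It is also narrow for H2-K1 (Ctrl 3 at 6.23, Akk 1 at 6.19) and Psmb9 (Ctrl 3 at 2.55, Akk 3 at 2.52).

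Genes that act around the pathway were lower in mean as well, and none passed the test in either direction. Both held for every listed gene that was present in the table, where 7966 of all 8003 genes had a lower mean. Present were 8 of 10 interferon-gamma signalling genes, 12 of 22 class II and cross-presentation helpers, 9 of 12 endoplasmic reticulum chaperones and 13 of 19 proteasome helpers. Their median log2 fold changes were -1.23, -0.93, -0.93 and -0.97, beside -0.87 for the table. Ifngr2, a chain of the interferon-gamma receptor, stood at 7.62, 1.89 and 0.62 in Ctrl and 1.48, 0.39 and 0.7 in Akk.

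Lgmn encodes a lysosomal protease that cuts antigens for class II. It stood at 7.02, 4.54 and 4.91 FPKM in Ctrl and 2.26, 2.12 and 1.36 in Akk, without overlap, at a log2 fold change of -1.48 and an adjusted p of 0.487 in limma. Relative to the library median Lgmn overlapped, with Ctrl 1 at 2.24 below Akk 1 to 3 at 2.56, 2.99 and 2.33. Cybb, a subunit of the phagocyte oxidase, stood at 26.7, 5.55 and 2.87 in Ctrl and 3.89, 1.13 and 2.83 in Akk. The log2 fold changes of the chaperones P4hb and Hsp90b1 were -1.38 and -1.13. Those of Nfe2l2, a stress regulator of proteasome genes, and Uba1, the ubiquitin-activating enzyme, were -1.42 and -1.28, and only Uba1 of these 4 had groups without overlap as deposited.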

How the data were processed

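Blood RNA of 3 Ctrl and 3 Akk mice was sequenced after oligo(dT) selection. The values deposited by the authors were FPKM with 2 decimals, and the depth was not given. The methods name HISAT2/Bowtie2 and RSEM, and the submitters' processing notes name TopHat2, Cufflinks and GRCm38. The members and gene lists were chosen with earlier results of these data known. The 8003 genes were those the authors kept as differing. From the values, log2(FPKM + 0.1) was fitted with limma 3.58.1 in R 4.3.3 (trended variance, no scaling, no covariate) and adjusted by Benjamini-Hochberg over all 8003 genes. The fit was tried on simulated data with noise drawn separately for each gene. A shift shared by all genes of a library, as in Ctrl 1, was not covered. Ratios were tested by exact permutation over samples. p-values set the group difference against the spread between these mice, among genes the authors selected on the same libraries. In fits without scaling, that spread includes the high level of Ctrl 1. Near-identical transcripts were sought with blastn 2.17.0 in GENCODE vM21. Named genes were H2-Q9, the highest gene of each list, up to 3 genes without overlap per list, genes higher in Akk (none), those with unadjusted p under 0.05, fixed catalytic, transport and regulator genes, 2 genes per outside list (1 of them is not reported here) and the 5 patterns nearest H2-Q9 within and outside the set. Other genes, such as H2-K1, were named after their values were seen.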

Additional observations from a re-analysis of the deposited data

How the results depend on the processing

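The count of the 62 genes past both thresholds was 0 in every alternative except without Ctrl 3, where it was 1 (H2-Q9), so leaving out a library gave 0 to 1. For the whole table the count lower in Akk was 0, but 4 with a pseudocount of 0.01, 1 with the replicate block, 1 with centring and without Ctrl 1 (an alternative chosen after seeing the data), and 0 to 23 when a library was left out. The count higher in Akk was 0, but 1 with centring and 1 with centring and without Ctrl 1. The number of the 62 genes without overlap was 8, but 5 of the 45 that reached a minimum mean FPKM of 1 (20.1% of the table so filtered), 3 after quantile normalization (3.51% of the table) and 8 to 52 when a library was left out. The 52 came without Ctrl 3, against 57.8% of the table. The 29 came without Akk 1, against 41.8%. The median log2 fold change was -1.06, but -0.66 with a pseudocount of 1, -0.15 after centring, 0.027 after quantile normalization and -1.60 to -0.41 when a library was left out. Quantile normalization sets B2m to 0 by construction, since its rank was second in every library. Among the genes named by rule, quantile normalization turned Calr (0.23), Psmb5 (0.24), Psmb1 (0.27), Psmc3 (0.21), Psmd11 (0.058), Psme4 (0.058), Psmb7 (0.21) and Ciita (0.097) above 0. Others of the 62 were above 0 as well. Centring adds 0.91 to every gene alike, which put 17 of the 62 above 0. Of the genes named by rule, these included Psmb5 (0.047), Psmb1 (0.021) and Ciita (0.067). Centring without Ctrl 1 also put 17 above 0, among them the rule-named Pdia6 (0.011), Psmb5 (0.081) and Ciita (0.00086). None of these passed the test, and the cause was not tested beyond that construction. The log2 ratio of Psmb10 to Psmb7 was -0.81 to -0.43 and that of Psmb8 to Psmb5 -0.89 to -0.025 when a library was left out. Whether replicate numbers mark a pairing was not settled. Deviations of same-numbered libraries correlated over the genes at 0.036, -0.011 and -0.096, a measure blind to a shift shared by all genes. The replicate block gave 591 table genes at an unadjusted p under 0.05 in limma, against 276 without it. No call among the 62 genes changed under the block.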
